A study of Mus musculus with 8 samples.

Results

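The myogenic transcription factors described here are Myog, Myod1, Myf5 and Myf6 of the MyoD family, Mef2a, Mef2c and Mef2d of the MEF2 family, and Pax3 and Pax7. Their members were taken as all probe sets that the array annotation assigns to one of these 9 symbols and to no other gene. This gave 24 probe sets among 34945 with a single symbol, or 9 genes among 18193. No filter on dim values was applied, so all members entered every test.

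RNA levels were measured on Affymetrix mouse genome arrays in 4 groups with 2 independent cultures each. The groups were Men1-KO PILECs, WT PILECs, Men1-KO mouse embryonic stem cells (mESCs) and WT mESCs. PILECs are pancreatic islet-like endocrine cells that were differentiated from the mESCs in culture, through embryoid bodies, serum-free selection, expansion with growth factor and a final step in nicotinamide. Men1-KO cells were the menin-null line 3.2N, and WT cells were the line TC-1, both on the 129S6/SvEvTac background. Each genotype was 1 line, so genotype and line cannot be told apart. The mESCs had been grown on feeder fibroblasts before they were made feeder-free.

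In muscle development, Pax3 and Pax7 mark progenitors in the somite and, outside muscle, the dorsal neural tube and neural crest. Myod1 and Myf5 commit progenitors to the myogenic lineage, Myog drives their terminal differentiation, and Myf6 acts in differentiation and in mature fibres. These basic helix-loop-helix proteins pair with E proteins and bind the E-box CANNTG, while the MEF2 proteins, which also act in heart, neurons and other cells, bind A/T-rich sites beside them. Menin, the product of Men1, is a subunit of histone methyltransferase complexes that deposit H3K4me3 at promoters.

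All values below are deposited log2 signals. The number of arrays limits their precision. Across probe sets, arrays of the same group correlated at 0.9927 to 0.9975. As a yardstick of background, the 95th percentile of 80 probe sets for olfactory and vomeronasal receptor genes was taken in each group: 6.91 in Men1-KO PILECs, 6.68 in WT PILECs, 6.52 in Men1-KO mESCs and 6.40 in WT mESCs. Men1 itself (probe set 1416347_at) read 7.95 and 8.02 in Men1-KO PILECs against 10.06 and 9.92 in WT PILECs, and 7.77 and 7.82 in Men1-KO mESCs against 9.90 and 9.97 in WT mESCs. It was 4.01-fold lower in Men1-KO PILECs (adjusted p = 7.38e-05) and 4.42-fold lower in Men1-KO mESCs (adjusted p = 7.07e-05), so no array went against its label, while another Men1 probe set, 1443826_x_at, did not pass in either (-0.32 and -0.18). Differences were tested with limma across all genes, and the words rose, fell and changed stand for a Benjamini-Hochberg adjusted p under 0.05. In RNA from whole cultures, fewer cells of a type and less RNA per cell cannot be told apart.

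Myogenin RNA was the member that separated the PILEC genotypes. Of the 9 genes, 1 fell and 0 rose in Men1-KO PILECs, where 4.42% of all genes tested fell and 2.26% rose. A count of 1 among 9 says nothing about the family as a whole. The median difference of the members was -0.19, beside -0.01 over all genes. In mESCs 0 of 9 changed by limma (2 at an unadjusted p under 0.05, Mef2d and Pax3), where 3.64% of all genes did. By contrast, the change of cell type touched most members: 5 of 9 were higher in PILECs than in mESCs in Men1-KO cells, where 28.9% of all genes were higher and 36.1% lower, and 7 of 9 in WT cells, where 27.8% were higher and 35.3% lower.

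**Figure D1:**
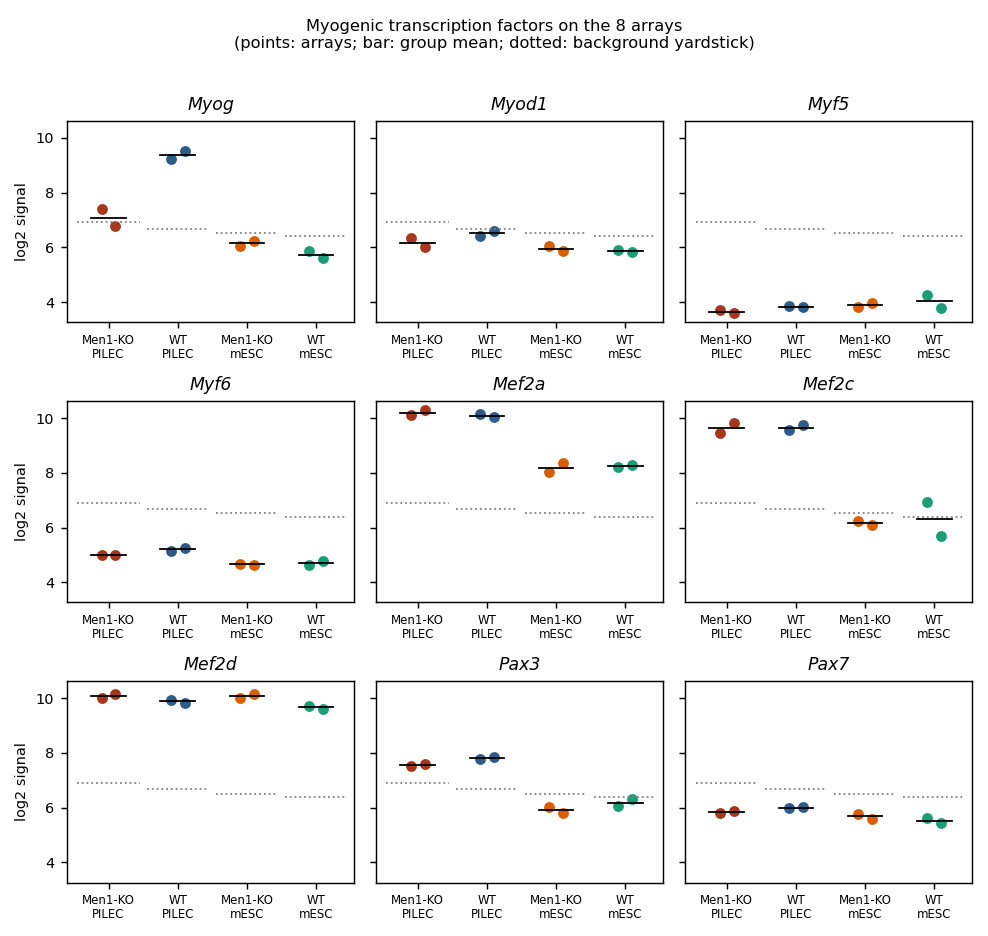
Log2 signal (y axis) of the 9 genes on each of the 8 arrays, with points for arrays, a bar for the group mean and a dotted line for the background yardstick of each group. Myog reads 9.24 and 9.52 in WT PILECs and at most 7.40 on the other 6 arrays, Mef2a, Mef2c and Pax3 are higher in PILECs of both genotypes, and Myod1, Myf5, Myf6 and Pax7 have every group mean under the yardstick.

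Myog, at chr1:134290004-134292548 in GRCm38.p6, read 7.40 and 6.78 in Men1-KO PILECs against 9.24 and 9.52 in WT PILECs. The groups did not overlap, and the higher Men1-KO array stood below the lower WT array, an order that 28.5% of all probe sets had in PILECs. In mESCs it read 6.06 and 6.23 in Men1-KO cells and 5.86 and 5.62 in WT cells, under the yardstick in both. WT PILECs were therefore far above the yardstick, Men1-KO PILECs lay near it with array 2 under it, and mESCs stood under it.

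Myog fell by 2.29 in Men1-KO PILECs (SE 0.202, 4.88-fold, adjusted p = 0.00197). Over the alternative settings the difference ranged between -2.60 and -1.98, with adjusted p between 1.41e-05 and 0.0305, so the call held in each of them, including without any single array. In mESCs the difference was 0.40 (SE 0.202, adjusted p = 0.342). Between PILECs and mESCs Myog rose by 0.95 in Men1-KO cells (adjusted p = 0.00347) and by 3.64 in WT cells (adjusted p = 1.29e-06).

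The Men1-KO effect itself was compared between the cell types as a difference of differences. Of the 9 genes 1 passed this test, Myog, where 1.57% of all genes were lower and 1.5% higher. The effect was -2.69 in PILECs relative to mESCs (SE 0.286, adjusted p = 0.00647). Without WT PILEC array 2 the value was -2.55 and the adjusted p 0.0514, so that this call rests on that array. Without any other single array the adjusted p stayed at or under 0.0482.

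Levels were compared with Myog over the 8 arrays for 6490 genes that varied between groups and had at least 1 group mean above background. The 5 genes that followed Myog most closely were Myh3 (Pearson r = 0.994), Mybph (0.988), Ttr (0.987), Myh8 (0.986) and Lamp5 (0.982). These correlations describe 8 arrays in 4 groups and carry no test. Myh3 and Myh8 are the embryonic and perinatal myosin heavy chains, Mybph is a myosin-binding protein, Ttr carries thyroid hormone and retinol in blood, and Lamp5 is a membrane protein best known from neurons. Myh3 read 7.82 and 7.47 in Men1-KO PILECs against 9.43 and 9.83 in WT PILECs. Mybph starts 96556 bases from Myog on chromosome 1 in GRCm38.p6, and its means were 6.30 in Men1-KO PILECs and 7.59 in WT PILECs. All 5 were lower in Men1-KO PILECs, by 1.14 for Lamp5 up to 2.21 for Ttr. This direction comes with picking genes by their likeness to Myog on the same arrays, so it is no separate result. The Men1-KO PILEC means of Mybph (6.30), Myh8 (5.64) and Lamp5 (6.13) lay under the yardstick.

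The promoters of Myog and of Myh3, the gene most like it, are shown because both genes moved together on these arrays. Each line gives the 250 bases before the start site in RefSeq's GRCm38.p6 annotation, Myog at chr1:134289754-134290003 and Myh3 at chr11:67078050-67078299, both on the plus strand. Capitals mark the E-box CANNTG, the MEF3 site TCAGGTT bound by Six4 and its relatives, and the MEF2 site with its last base left free.
Myog: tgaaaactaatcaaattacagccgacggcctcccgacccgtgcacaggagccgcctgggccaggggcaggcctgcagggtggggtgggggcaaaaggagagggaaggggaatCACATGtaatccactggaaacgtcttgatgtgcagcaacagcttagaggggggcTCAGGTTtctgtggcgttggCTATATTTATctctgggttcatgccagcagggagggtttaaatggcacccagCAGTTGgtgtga
Myh3: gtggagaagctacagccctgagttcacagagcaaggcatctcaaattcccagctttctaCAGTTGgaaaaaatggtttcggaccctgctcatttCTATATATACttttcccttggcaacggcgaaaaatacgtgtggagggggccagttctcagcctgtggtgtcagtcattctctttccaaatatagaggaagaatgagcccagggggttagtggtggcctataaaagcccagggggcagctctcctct

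The Myog window held E-boxes at -138 to -133 (CACATG) and at -12 to -7 (CAGTTG), the MEF3 site at -84 to -78 and the MEF2 match at -64 to -55, counted from the start site. Myh3 held the E-box CAGTTG at -191 to -186 and a MEF2 match at -156 to -147. Windows of 300 bases, 250 before and 50 after the start, were searched on both strands in 32851 promoters. An E-box was in 72.3% of them, the MEF3 site in 4.07%, the full MEF2 site in 3.19% and the MEF2 site with a free last base in 7.66%. The last form was added after the Myog sequence had been seen, since neither promoter held the full site. These are matches of letters and show no binding.

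Of the 9 members 6 were in the promoter table, with 8 windows in all. Mef2a held the full MEF2 site at its start, from -2 to 8. The windows of Myf5, Mef2d and Pax7 held none of the motifs searched. Of the 3 Mef2c windows, the most upstream held 2 E-boxes, a MEF3 site on the minus strand and a MEF2 match with a free last base, another held 1 E-box and the last held none.

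**Figure D2:**
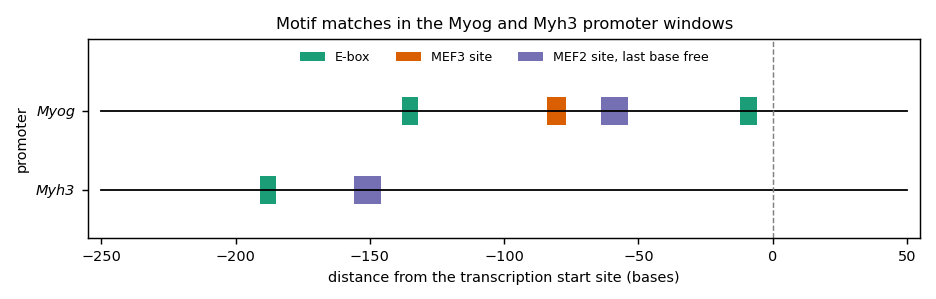
Positions of motif matches in the Myog and Myh3 promoter windows, with the distance from the transcription start site in bases on the x axis and 1 line per gene. E-boxes are green, the MEF3 site orange and MEF2 sites with a free last base violet, and Myog carries all 3 kinds before its start and Myh3 an E-box and a MEF2 match.

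The other MyoD family genes were at background on these arrays. Myod1 (1418420_at) read 6.34 and 6.01 in Men1-KO PILECs against 6.42 and 6.60 in WT PILECs, and 6.04 and 5.87 in Men1-KO mESCs against 5.89 and 5.85 in WT mESCs. Every group mean was under its yardstick. The Men1-KO PILEC arrays lay below the WT ones, as for 28.5% of all probe sets. The difference of -0.33 did not pass (SE 0.13, adjusted p = 0.173), with a 95% interval between -0.63 and -0.03. Within WT cells Myod1 rose by 0.64 in PILECs (adjusted p = 0.00268), a change measured under the yardstick. A second Myod1 probe set, 1447675_x_at, had group means between 3.63 and 3.76 and passed no test.

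Myf5 read 3.71 and 3.60 in Men1-KO PILECs, 3.86 and 3.83 in WT PILECs, 3.83 and 3.97 in Men1-KO mESCs and 4.28 and 3.79 in WT mESCs. No comparison of Myf5 passed, and the difference between PILEC genotypes was -0.19 (95% interval -0.54 to 0.16). Myf6, at the same cluster on chromosome 10, averaged 5.01 in Men1-KO PILECs, 5.20 in WT PILECs, 4.66 in Men1-KO mESCs and 4.71 in WT mESCs. Its Men1-KO PILEC arrays lay below the WT ones, as for 28.5% of all probe sets, and the difference of -0.20 did not pass (adjusted p = 0.237). Myf6 was higher in PILECs than in mESCs, by 0.34 in Men1-KO and 0.49 in WT cells, with all means under the yardstick. Myog was thus the only member of the MyoD family above the yardstick in any group, and only in PILECs.

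**Figure D3:**
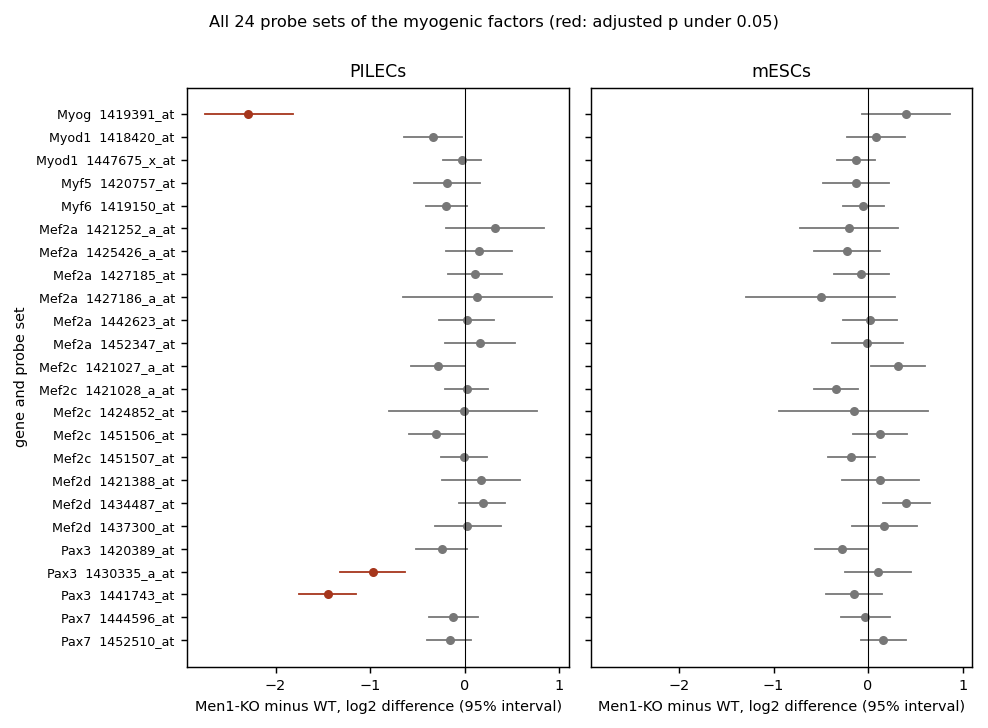
Men1-KO minus WT difference in log2 signal (x axis) with its 95% interval for each of the 24 probe sets (y axis), in PILECs on the left and in mESCs on the right. Red marks an adjusted p under 0.05 over all 34945 probe sets: Myog at -2.29 and 2 Pax3 probe sets at -0.97 and -1.45 in PILECs, and 0 of 24 in mESCs.

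Among single probe sets, 3 of the 24 were lower and 0 higher in Men1-KO PILECs, where 2.56% of all probe sets were lower and 1.31% higher. In mESCs 0 of 24 passed, against 2.2% overall. Probe sets of a gene share its RNA and are not replicates. PILECs were higher than mESCs for 17 of 24 in Men1-KO cells and for 18 of 24 in WT cells, with 28.9% and 27.7% of all probe sets called higher. In each genotype 1 of 24, a Mef2d probe set, was lower, where 33.8% in Men1-KO and 32.8% in WT cells were.

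None of the 3 MEF2 genes passed between PILEC genotypes, while Mef2a and Mef2c rose in PILECs in both. Mef2c (1424852_at), a MEF2 gene of muscle, heart and neurons, read 9.47 and 9.80 in Men1-KO PILECs and 9.56 and 9.73 in WT PILECs. In mESCs it read 6.25 and 6.08 in Men1-KO cells and 6.95 and 5.69 in WT cells. The PILEC genotypes overlapped, while every PILEC array was above every mESC array. Mef2c rose in PILECs by 3.47 in Men1-KO cells (SE 0.346, adjusted p = 3.74e-05) and by 3.33 in WT cells (SE 0.346, adjusted p = 5.09e-05).

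All 5 Mef2c probe sets rose in PILECs of both genotypes, by 1.90 to 3.47 in Men1-KO cells and by 1.79 to 3.90 in WT cells. Between PILEC genotypes their differences lay between -0.30 and 0.02 and none passed. The interval for 1424852_at was wide, -0.81 to 0.79, since its WT mESC arrays, at 6.95 and 5.69, stood far apart and the fit pools the spread of all groups. The 4 other probe sets had narrower intervals, the lowest bound being -0.59.

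Mef2a (1427185_at), which is expressed in many tissues, read 10.11 and 10.29 in Men1-KO PILECs, 10.15 and 10.03 in WT PILECs, 8.03 and 8.34 in Men1-KO mESCs and 8.21 and 8.30 in WT mESCs. It rose in PILECs by 2.01 in Men1-KO cells (4.04-fold, adjusted p = 1.97e-06) and by 1.84 in WT cells (3.58-fold, adjusted p = 3.56e-06). Of its 6 probe sets 6 were higher in Men1-KO PILECs and 5 in WT PILECs than in mESCs, the exception being 1425426_a_at with 0.16 in WT cells. The difference between PILEC genotypes was 0.11 (95% interval -0.18 to 0.39).

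Mef2d (1434487_at) read 9.99 and 10.15 in Men1-KO PILECs, 9.94 and 9.83 in WT PILECs, 10.00 and 10.16 in Men1-KO mESCs and 9.73 and 9.62 in WT mESCs. Neither difference between genotypes passed, at 0.19 in PILECs (adjusted p = 0.324) and 0.40 in mESCs (SE 0.102, adjusted p = 0.0804). The mESC difference passed under 3 alternatives given below. No direction can be given for Mef2d between cell types, since its probe sets differed. Probe set 1437300_at fell in PILECs by 0.83 in Men1-KO and 0.69 in WT cells, while the differences of 1434487_at and 1421388_at did not pass. For 1421388_at they were -0.30 in Men1-KO and -0.34 in WT cells, and it passed as lower in 1 and 3 of 13 alternatives.

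Pax3 was the member whose probe sets gave different readings of the genotypes. Probe set 1441743_at read 5.70 and 6.11 in Men1-KO PILECs against 7.30 and 7.41 in WT PILECs. Probe set 1430335_a_at read 6.67 and 6.77 in Men1-KO PILECs against 7.76 and 7.63 in WT PILECs. The brightest one, 1420389_at, read 7.52 and 7.61 in Men1-KO PILECs against 7.76 and 7.85 in WT PILECs. All 3 were lower on both Men1-KO arrays, as were 28.5% of all probe sets, and 1420389_at did not pass the test. The Men1-KO means of 1441743_at and 1430335_a_at lay under the yardstick while those in WT PILECs lay above it.

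Pax3 probe set 1441743_at fell by 1.45 in Men1-KO PILECs (SE 0.132, adjusted p = 0.0021 over all probe sets). Probe set 1430335_a_at fell by 0.97 (SE 0.151, adjusted p = 0.0163), but its adjusted p was between 0.076 and 0.138 without any one of the 4 PILEC arrays. For 1420389_at the difference was -0.24 (95% interval -0.52 to 0.03, adjusted p = 0.321). Which stretch of the Pax3 transcripts each probe set reads was not analysed here. As a gene, Pax3 was therefore not called with its brightest probe set (adjusted p = 0.264), and it was called with the mean of its probe sets (-0.89, adjusted p = 0.00313).

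In mESCs none of the 3 Pax3 probe sets passed between genotypes, with differences of -0.28, 0.10 and -0.15, and all had means under the yardstick. The Men1-KO effect on 1441743_at differed between the cell types by -1.30 (SE 0.186, adjusted p = 0.0199). Of the 24 probe sets 2 passed that test, both lower, with 0.787% of all probe sets called lower and 0.816% higher. Without WT PILEC array 1 or 2, or WT mESC array 1 or 2, the adjusted p for 1441743_at was between 0.0864 and 0.127. All 3 probe sets rose in PILECs in both genotypes: by 1.67, 1.21 and 0.91 in Men1-KO cells for 1420389_at, 1430335_a_at and 1441743_at, and by 1.62, 2.28 and 2.21 in WT cells.

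Pax7 (1452510_at) read 5.80 and 5.86 in Men1-KO PILECs, 5.98 and 6.01 in WT PILECs, 5.77 and 5.59 in Men1-KO mESCs and 5.61 and 5.43 in WT mESCs. Its second probe set, 1444596_at, read 6.17 and 6.01 in Men1-KO PILECs, 6.27 and 6.15 in WT PILECs, 5.01 and 4.98 in Men1-KO mESCs and 5.14 and 4.90 in WT mESCs. Every mean was under the yardstick. Between PILECs and mESCs 1452510_at, which stands for the gene, differed by 0.15 in Men1-KO cells (adjusted p = 0.215) and rose by 0.48 in WT cells (adjusted p = 0.00286 over all genes). The second probe set rose in PILECs by 1.10 in Men1-KO and 1.19 in WT cells, and neither passed between genotypes in PILECs or in mESCs.

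In order of group, Myog was highest in WT PILECs, then in Men1-KO PILECs, then in mESCs, where the genotypes did not differ beyond the test. Mef2a, Mef2c and the brightest Pax3 probe set were high in PILECs of both genotypes, which did not differ beyond the test, and lower in mESCs of both. Above the yardstick stood 5 of the 9 genes in each PILEC group (Myog, Mef2a, Mef2c, Mef2d and Pax3) and 2 in each mESC group (Mef2a and Mef2d).

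Of 3 E proteins, the partners of the MyoD family, 2 fell in Men1-KO PILECs, where 4.42% of all genes fell: Tcf4 by 0.59 (adjusted p = 0.0158) and Tcf12 by 0.57 (adjusted p = 0.0256). Tcf4 read 10.91 and 10.92 in Men1-KO PILECs against 11.45 and 11.56 in WT PILECs, and Tcf12 10.84 and 11.01 against 11.47 and 11.52 in the same groups. For both genes the Men1-KO arrays lay below the WT arrays, as for 28.5% of all probe sets in PILECs. Neither call held without any one PILEC array, and the calls did not both hold without either WT mESC array. Tcf3, the gene of E12 and E47, differed by -0.13 (adjusted p = 0.38). Both Tcf4 and Tcf12 rose in PILECs, by 2.14 and 1.67 in Men1-KO cells and by 2.74 and 2.09 in WT cells.

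Of 15 inhibitors of the MyoD family, 4 fell in Men1-KO PILECs and 0 rose, where 4.42% of all genes fell and 2.26% rose. Mdfic, an inhibitor of the I-mfa family, fell by 0.99 (adjusted p = 0.0092). Id3 and Id1, which sequester E proteins, fell by 0.76 and 0.72, and Twist1, a bHLH factor of mesenchyme, by 0.34 (adjusted p = 0.0449). Without Men1-KO PILEC array 2, WT PILEC array 1 or WT PILEC array 2 the count was 2, 1 and 0. In mESCs Id4 rose by 0.79 (adjusted p = 0.029) and Id3 fell by 0.58 (adjusted p = 0.024) in Men1-KO cells. Without either WT mESC array neither passed (adjusted p between 0.113 and 0.179), nor without either WT PILEC array (0.0757 for Id4 and 0.0623 for Id3). Id3 did not pass without Men1-KO mESC array 1 (0.0802), nor Id4 without either Men1-KO PILEC array (0.0536).

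Of 14 MEF2 co-regulators analysed, among them the class IIa histone deacetylases that repress MEF2 proteins, 0 changed between PILEC genotypes by limma (2 at an unadjusted p under 0.05). In mESCs 1 rose, Mef2b, the MEF2 gene outside the member list, by 0.48 (adjusted p = 0.0365). It read 9.17 and 9.01 in Men1-KO mESCs against 8.53 and 8.67 in WT mESCs, and it passed without Men1-KO mESC array 2 but not without any other single array (adjusted p between 0.0588 and 0.27). Between PILECs and mESCs 6 of the 14 were higher and 4 lower in Men1-KO cells, where 28.9% of all genes were higher and 36.1% lower. In WT cells 6 were higher and 5 lower, where 27.8% were higher and 35.3% lower. Hdac5, Hdac7 and Hdac9 were higher in both genotypes, Hdac9 by 1.42 in Men1-KO and 1.45 in WT cells, while Hdac4 was lower in WT cells.

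Upstream of the MyoD family, 16 genes were analysed, relatives of Six4 and Eya1 among them. In Men1-KO PILECs 5 of these fell and 1 rose, where 4.42% of all genes fell and 2.26% rose. Meox2, a homeobox gene of somite and limb muscle, read 4.68 and 4.58 in Men1-KO PILECs against 5.46 and 5.75 in WT PILECs and fell by 0.97 (adjusted p = 0.00494), under the yardstick in both. Six4, whose product binds the MEF3 site shown in the Myog promoter, fell by 0.63 with its brightest probe set, but its adjusted p was 0.302 with the mean of its probe sets. Met and Eya4 fell by 0.60 and 0.58, and Eya1 by 0.48. Dach2, a cofactor of Six4 and Eya1 and their relatives, rose by 0.66 (adjusted p = 0.0335). Without Men1-KO PILEC array 1 or either WT mESC array the count of 6 was 3, and without Men1-KO PILEC array 2 or either WT PILEC array it was 1.

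Genes of the presomitic mesoderm and somite gave 1 change among 13 in Men1-KO PILECs, where 4.42% of all genes fell and 2.26% rose. This was Dll1, a Notch ligand, which fell by 0.43 (adjusted p = 0.0495). It did not pass without Men1-KO PILEC array 1 or without any WT array (adjusted p between 0.097 and 0.22). Of 6 other Pax genes 1 changed, Pax8, which fell by 0.96 (adjusted p = 0.00492) and had both PILEC means under the yardstick. The count was 0 without either WT PILEC array.

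Of 34 contractile genes of striated muscle, many of them known targets of MyoD family and MEF2 proteins, 17 fell, 0 rose and 17 did not pass in Men1-KO PILECs, where 4.42% of all genes fell and 2.26% rose. The median difference of the 34 was -0.56 beside -0.01 over all genes. Which muscle genes change had been seen in earlier results of these data when the list was drawn up, so its direction is not independent evidence. Actc1, the cardiac actin that is also the main actin of embryonic skeletal muscle, read 8.90 and 8.43 in Men1-KO PILECs against 11.29 and 11.60 in WT PILECs. Myl4, the embryonic and atrial myosin light chain, read 8.93 and 8.50 in Men1-KO PILECs against 10.36 and 10.63 in WT PILECs. For both genes the Men1-KO PILEC arrays lay below the WT PILEC arrays, as for 28.5% of all probe sets. They also lay above the mESC arrays of either genotype.

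Actc1 fell by 2.78 in Men1-KO PILECs (SE 0.202, adjusted p = 0.000719), Myh3 by 1.99 (SE 0.171, adjusted p = 0.00174) and Myl4 by 1.78 (SE 0.189, adjusted p = 0.00367). Tnnt2, the cardiac troponin T that early skeletal muscle also makes, fell by 1.86 with its brightest probe set, 1424967_x_at, but differed by 0.14 without its s, x and a types. The others that fell were Tnni1, Acta1, Tnnc1, Myh8, Actn2, Myl1, Mylpf, Tnnt1, Tnnc2, Mybph, Ttn, Tnnt3 and Neb, which hold slow and fast isoforms of troponin, actin, myosin and the giant sarcomere proteins. Adult myosins Myh1, Myh2 and Myh4 and the muscle creatine kinase Ckm did not pass, with differences of -0.02, 0.15, 0.14 and 0.22.

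**Figure D4:**
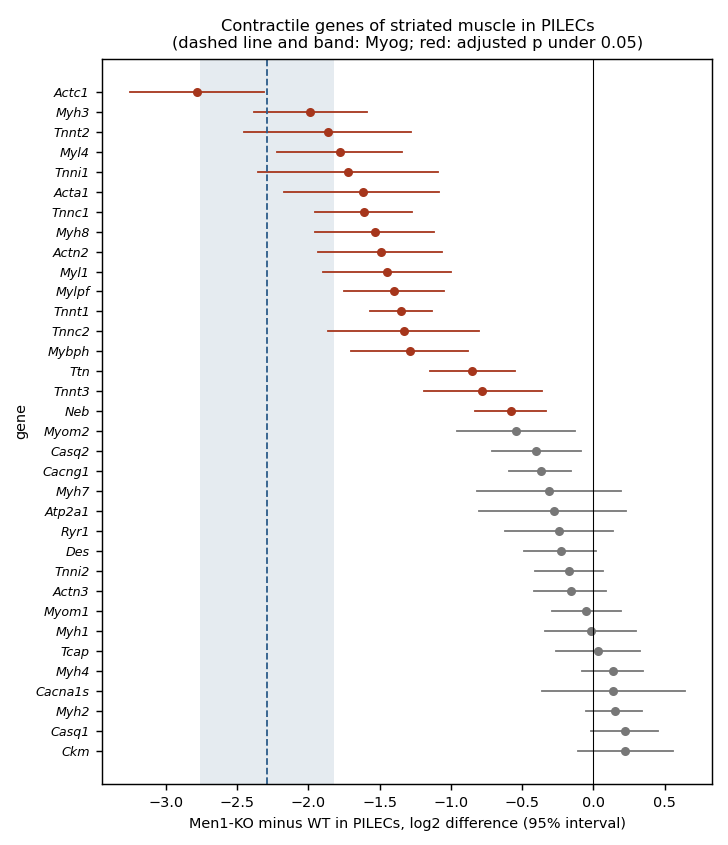
Men1-KO minus WT difference in PILECs, in log2 signal with its 95% interval (x axis), for the 34 contractile genes (y axis), with those past an adjusted p of 0.05 in red and the Myog difference of -2.29 as a dashed line in a band for its interval. The 17 genes in red run between -2.78 for Actc1 and -0.58 for Neb, and 0 genes are red to the right of zero.

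The count of 17 did not hold without any single PILEC array. It was smaller in each of these fits and smallest without WT PILEC array 2. Such fits leave 1 array in a group, so their counts are not given. With all arrays but without the s, x and a types of probe set (names ending in _s_at, _x_at or _a_at) the count was 10. There 5 of the 17 genes, each read by an a type, have no other probe set. The 17 genes were high or low together within a group, since 16 read higher on Men1-KO PILEC array 1 than on array 2 and 17 read higher on WT PILEC array 2 than on array 1, where 47.3% and 43.4% of all genes did. Myog stood in the same order, at 7.40 over 6.78 and 9.52 over 9.24.

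In mESCs 0 of the 34 contractile genes changed by limma between genotypes (5 at an unadjusted p under 0.05). The Men1-KO effect differed between PILECs and mESCs for 10 of them, all lower, where 1.57% of all genes were lower and 1.5% higher. Among the 10 were Actc1 by -2.33 and Myh3 by -2.01. That count was 1 without WT PILEC array 2, 2 without WT mESC array 1, and 3 without WT mESC array 2, WT PILEC array 1 or Men1-KO PILEC array 2. PILECs were higher than mESCs for 13 and lower for 8 in Men1-KO cells, where 28.9% of all genes were higher and 36.1% lower. In WT cells they were higher for 19 and lower for 6, where 27.8% were higher and 35.3% lower. In WT PILECs Actc1 rose by 4.88, Myl1 by 4.65 and Myl4 by 3.58, while Des, the intermediate filament of muscle, fell by 0.41.

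Of 21 early muscle products and fusion genes 3 fell in Men1-KO PILECs, where 4.42% of all genes fell. They were Mymx by 1.05, Hspb2 by 0.83 and Chrna1 by 0.65. Chrna1, the acetylcholine receptor subunit induced in myotubes, read 6.10 and 6.01 in Men1-KO PILECs against 6.52 and 6.89 in WT PILECs. Mymx, a micropeptide of myoblast fusion, read 4.54 and 4.89 in Men1-KO PILECs against 5.69 and 5.84 in WT PILECs, under the yardstick, and 10.92 and 11.01 in Men1-KO mESCs and 10.89 and 10.86 in WT mESCs. Its level in mESCs was thus far above that in PILECs of either genotype. The count was 0 without WT PILEC array 2 and 1 without Men1-KO PILEC array 2.

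Markers of other cell types were read on the same arrays, and their part in the results above was not tested. Beside their counts between PILEC genotypes, 4.42% of all genes fell and 2.26% rose in Men1-KO PILECs. Of 10 pluripotency markers 5 fell in Men1-KO PILECs. These were Dppa5a (adjusted p = 0.00238) and 4 others with differences of -0.98 for Zfp42, -0.93 for Nanog, -0.81 for Pou5f1 and -0.74 for Tdgf1. Without WT PILEC array 1 the count was 3. Nanog read 7.94 and 8.07 in Men1-KO PILECs against 9.05 and 8.83 in WT PILECs. Of 19 islet markers 0 changed between PILEC genotypes by limma, 6 had an unadjusted p under 0.05, and 2 changed without either Men1-KO mESC array. Above the yardstick stood 9 of the 19 in Men1-KO PILECs and 10 in WT PILECs. Between PILECs and mESCs 11 were higher and 1 lower in Men1-KO cells, where 28.9% of all genes were higher and 36.1% lower. In WT cells 9 were higher and 3 lower, where 27.8% were higher and 35.3% lower. Chgb, Sst, Nkx2-2, Chga, Isl1 and Pax6 were higher in both. Ins2 read 7.55 and 7.19 in Men1-KO PILECs and 7.13 and 7.33 in WT PILECs. Its difference between PILECs and mESCs passed in neither genotype. Gcg, Iapp, Pdx1 and Neurog3 were among the markers with both PILEC means under the yardstick. Between PILECs and mESCs, Gcg and Iapp were higher and Pdx1 lower in Men1-KO cells, and Neurog3, Neurod1 and Ppy were lower in WT cells. For Neurod1 this is RNA, while the study saw more NeuroD1 protein by Western blot after differentiation of both genotypes. The study saw glucagon and Iapp transcripts by RT-PCR in PILECs of both genotypes. Neuron markers, 10 of 10 above the yardstick in both PILEC groups, gave 1 rise, Syt1 by 0.59, which was lost without either WT PILEC array or Men1-KO PILEC array 2.

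Heart markers were read because the heart also makes Actc1, Tnnt2 and Myl4, and a part of heart cells in those values was not tested. Of 12 heart markers 0 fell and 1 rose in Men1-KO PILECs, Gata4 by 1.34, and 2 in Men1-KO and 3 in WT PILECs stood above the yardstick. Those under the yardstick in both included Tbx5, Myl2, Myl7 and Nppa. Between PILECs and mESCs 2 of the 12 heart markers were higher and 5 lower in Men1-KO cells, where 28.9% of all genes were higher and 36.1% lower. In WT cells 0 were higher and 5 lower, where 27.8% were higher and 35.3% lower. Myh6, Myl2 and Myl7 were lower in both genotypes and Nppa was higher in Men1-KO cells. Gata4 was higher in Men1-KO and lower in WT cells. Fibroblast markers gave 1 rise (Thy1 by 1.01) and 2 falls (Lum by 1.07 and Col1a2 by 0.78) among 10, smooth muscle markers 0 of 7 and endothelial markers 0 of 8 by limma (0 and 1 at an unadjusted p under 0.05). Pax3 is also a gene of the dorsal neural tube, whose markers gave 2 falls (Zic1 by 1.02 and Snai2 by 0.77) and 1 rise (Sox10 by 0.72) among 12. Without either WT PILEC array 1 of these 12 passed, and 1 of the 10 fibroblast markers. Zic1 read 11.30 and 11.53 in Men1-KO PILECs against 12.48 and 12.38 in WT PILECs.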

How the data were processed

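RNA of 8 cultures, 2 in each of 4 groups, was hybridised to 1-colour Affymetrix mouse genome arrays. The deposited values are log2 signals per probe set, made by the authors, between 3.26 and 15.2. RMA and Partek appear in the submitters' processing notes and MAS 5.0 in the study's methods, with further versions, and which of them made the values, not given in the sources used here. Scanner files were not used here, so background correction and normalisation were kept as deposited.

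Of 45101 probe sets, 34945 carried a single symbol in the platform annotation (9160 had none, 932 several, 64 were controls). The brightest probe set over the 8 arrays stood for each gene (18193 genes, 9010 with several probe sets), and probe sets were also fitted singly. All 8 arrays entered 1 fit of the group means, without a filter or block (lmFit, contrasts.fit and eBayes of limma 3.58.1, R 4.3.3), and p-values were adjusted by Benjamini-Hochberg over all genes or all probe sets. The fit had 4 residual and 3.72 prior degrees of freedom. The fitting code was tested on simulated data. The arrays of a group are independent cultures of 1 line, so p-values measure the spread between cultures.

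Named were all members with their probe sets, Men1 and, in each list, up to 4 passing genes with the largest difference. The 5 genes most like Myog by Pearson correlation were also named. They came from genes with at least 1 group mean above background and a range of at least 1. Further genes of a counted list, adult myosins, Ckm, Des, Hdac9 and cell type markers were named after their values were seen. The members and all lists were chosen with earlier results of these data known. Promoters came from RefSeq (GRCm38.p6) and were searched in Python 3.11.15. Alternatives were another quantile normalisation, median centring, the mean of a gene's probe sets, and leaving out the s, x and a types of probe set. Others were a background filter, an intensity trend with robust prior, a replicate block, the 4 arrays of a contrast alone, and leaving out each array.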

Additional observations from a re-analysis of the deposited data

Results flagged for a closer look

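For the results named here the Men1-KO effect differed between PILECs and mESCs by limma's test of the difference of effects, given as the effect in PILECs minus that in mESCs on the log2 scale. Among the members these were Myog (-2.69) and Pax3 probe set 1441743_at (-1.30). Among contractile genes they were Actc1 (-2.33), Myh3 (-2.01), Myl4 (-1.86), Tnnt2 (-1.71), Myh8 (-1.61), Tnnt1 (-1.57), Myl1 (-1.52), Mylpf (-1.42), Mybph (-1.42) and Tnnc1 (-1.34). Among early muscle products and fusion genes they were Mymx (-1.14), Hspb2 (-1.05) and Chrna1 (-0.87), and among inhibitors Id1 (-1.13), Mdfic (-1.06), Id4 (-0.97) and Twist1 (-0.57). Pax8 (-1.42) and Meox2 (-0.82) came from the other Pax genes and the upstream genes, and Ttr (-2.47) and Lamp5 (-1.09) from the genes most like Myog. Picking genes by their likeness to Myog on these arrays favours such a difference. In Id4 the difference came with a rise of 0.79 in Men1-KO mESCs and no called change in PILECs.

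Among the markers of other cell types, the pluripotency genes Zfp42 (-1.05), Dppa5a (-1.04) and Nanog (-1.01), the neuron genes Elavl3 (-0.93) and Tubb3 (-0.69) and the neural tube gene Zic1 (-0.80) had a lower effect in PILECs. The heart marker Gata4 (1.84) and the fibroblast marker Thy1 (0.62) had a higher one. For Elavl3 and Tubb3 the difference came with a rise in Men1-KO mESCs and no called change in PILECs.

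Many of these calls were lost under an alternative setting. Of 16 alternatives each, the call was lost in 10 for Twist1, 9 for Chrna1 and Thy1, 8 for Id4, 7 for Elavl3 and Tubb3, 6 for Mdfic, Mybph and Zic1, 5 for Myh8, Myl4 and Nanog, 4 for Mymx and Lamp5, 3 for Actc1, Dppa5a and Zfp42, 2 for Pax8, and 1 for Myh3 and Myog. For Tnnt2 it was lost in 8 of 16 and the sign turned in 1. Of 15 alternatives it was lost in 9 for Meox2, 6 for Hspb2, 4 for Id1 and 0 for Ttr, of 13 in 4 for the Pax3 probe set, and of 16 in 0 for Gata4. Tnnt1, Myl1, Mylpf and Tnnc1 were not followed singly through the alternatives.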

How the results depend on the processing

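With 2 arrays a group, small differences were not resolved, and for genes under the background yardstick the size of a difference is uncertain. The fall of Myog in Men1-KO PILECs kept its direction and call in all 17 alternatives. With the mean of all probe sets 2 members changed in PILECs, Pax3 being added, and 2 in the difference of effects, where Pax3 turned to -0.78. The mESC count was 1 (Mef2d) with quantile normalisation, with the intensity trend and robust prior and with the crossed block. The count in WT cells between PILECs and mESCs was 4 with the background filter, which removed dim members. The probe set count in mESCs was 1 with the trend and robust prior. Mef2d between cell types turned to 0.24 in Men1-KO cells with quantile normalisation (gene and probe set 1434487_at) and to -0.27 in WT cells with the mean of its probe sets. Tnnt2 turned to 0.14 in PILECs and 0.17 in the difference of effects without the s, x and a types of probe set. The causes were not tested.

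Without each array in turn, the members changed numbered 1 to 1 in PILECs, 0 to 0 in mESCs, 5 to 6 and 7 to 8 between cell types in Men1-KO and WT cells, and 0 to 1 in the difference of effects. For probe sets these were 2 to 3, 0 to 1 and, in the difference of effects, 0 to 4. Over all genes the alternatives called 12 to 1430 in mESCs against 663, 143 to 2348 in PILECs against 1216, and 66 to 1402 against 557 in the difference of effects.

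Whether arrays with the same replicate number were handled together is not given in the labels. Their deviations correlated between -0.278 and 0.222 over pairs of groups, which does not settle it. With the replicate block 1 member changed in PILECs (Myog, adjusted p = 0.00527), 0 in mESCs and 1 in the difference of effects, and 734 genes changed in PILECs. A crossed pairing, chosen after seeing the data, called 1, 1 and 1 members and 1512 genes in PILECs. Neither median centring nor quantile normalisation moved the median of all genes by more than 0.1, the largest shift being -0.0802.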
